A study of Caenorhabditis elegans with 2 samples.

Results

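The 319 regions described here were autosomal regions of the list made from both replicates pooled that lay outside the authors' set of reproducible peaks and yet overlapped a strong region in each replicate alone. A region qualified when it overlapped no peak of the set passed by the irreproducible discovery rate (IDR, which scores whether a region ranks high in each replicate) and shared at least 1 bp with 1 of the 5000 regions of highest signal in replicate 1 and with 1 of the 5000 of highest signal in replicate 2. They were 319 of 24741 autosomal pooled regions outside the IDR set, or 1.29%; on chromosome X the same rule gave 54 of 5160, or 1.05%. The regions were thus selected on their signal ranks in both replicates and the other 24422 autosomal regions outside the IDR set served as their background. The 92 IDR peaks were exactly the 92 pooled regions of highest signal, so the shared regions began at the next pooled rank, 93, and ran from there to rank 28847.

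Chromatin immunoprecipitation followed by sequencing recovers the DNA that lies near a chosen protein. It was applied here to ZK546.5, fused at its C-terminal end to green fluorescent protein and FLAG, in whole L4 larvae of Caenorhabditis elegans of mixed sex. The strain, OP231, carries the integrated transgene wgIs231 in an unc-119(ed3) background; there was 1 group of 2 biological replicates, both from this strain. The promoter that drives the transgene is not given in the labels, and a control experiment that they point to was not analysed here. The depth of the libraries is unknown, since the lists hold no read counts, and the signal of a region is the authors' value, for which the sources used here name no scale.

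RefSeq describes ZK546.5 as a protein with a zinc finger domain of a kind found in many DNA-binding factors. Factors of that kind recognise short words in DNA, and their regions often lie in promoters, the stretches just upstream of gene starts where transcription is assembled. In whole animals, signal at a region comes from all tissues together, so strong binding in few cells and weak binding in many cannot be told apart.

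Sequences that hold words seen at IDR peaks are shown first, as 101 bp around the pooled summit on the plus strand of WBcel235 (ce11), from the RefSeq genome. Capitals mark CCTGCACA or ACCGTA, or the same words read from the other strand (TGTGCAGG and TACGGT); an earlier look at these data had found both words at IDR summits. Each of these 5 regions lies in a promoter.
hmg-12 (chrII:11916319-11916419, plus strand): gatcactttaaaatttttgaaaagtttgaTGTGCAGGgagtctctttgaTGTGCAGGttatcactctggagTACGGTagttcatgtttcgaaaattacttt
frg-1 (chrIII:12978961-12979061, plus strand): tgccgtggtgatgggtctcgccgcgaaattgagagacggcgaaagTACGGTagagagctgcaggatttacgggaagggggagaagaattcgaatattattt
rpl-3 (chrIII:3867564-3867664, plus strand): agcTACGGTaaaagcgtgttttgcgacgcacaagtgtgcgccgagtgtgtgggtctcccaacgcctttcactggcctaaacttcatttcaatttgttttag
rde-4 (chrIII:10218717-10218817, plus strand): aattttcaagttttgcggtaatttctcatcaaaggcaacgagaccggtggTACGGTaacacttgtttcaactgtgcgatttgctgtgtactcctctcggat
rpl-15 (chrIV:654882-654982, plus strand): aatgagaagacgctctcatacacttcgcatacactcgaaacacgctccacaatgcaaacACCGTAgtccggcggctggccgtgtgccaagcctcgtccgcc

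The region upstream of hmg-12, which RefSeq names as a high mobility group protein, held TGTGCAGG at 2 places and TACGGT besides, and was the only shared region with CCTGCACA on either strand within 50 bp of its summit. It was also the region with the best pair of replicate ranks, 288 in replicate 1 and 222 in replicate 2. The promoters of frg-1, a homologue of the human FRG1 gene, of rde-4, which encodes a double-stranded RNA-binding protein of RNA interference, and of the ribosomal protein genes rpl-3 and rpl-15 held ACCGTA on one strand or the other.

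Most of the strong shared regions held neither word. The next 3 sequences are those of highest pooled signal in a histone promoter, upstream of a chaperone gene and between genes, with no capitals because neither word occurs.
his-37 (chrV:9546961-9547061, plus strand): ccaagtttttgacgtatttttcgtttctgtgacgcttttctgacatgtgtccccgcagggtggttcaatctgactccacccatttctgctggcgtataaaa
F26D10.23 (chrIV:17278528-17278628, plus strand): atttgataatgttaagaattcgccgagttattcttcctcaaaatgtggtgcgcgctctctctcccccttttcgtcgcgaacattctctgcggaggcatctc
intergenic V (chrV:265201-265301, plus strand): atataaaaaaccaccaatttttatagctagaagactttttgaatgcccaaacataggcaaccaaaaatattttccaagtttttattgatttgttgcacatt

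The histone region lay 94 bp upstream of his-37, a histone H4 gene. The region named after the non-coding RNA gene F26D10.23 lay 165 bp downstream of that gene's start and 381 bp upstream of hsp-1, which encodes an HSP70 chaperone. The intergenic region at the left end of chromosome V had its central 51 bp at 6 places in the genome, so its value is uncertain in the same way as that of repeated genes.

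A further set of strong regions had the pooled summit inside genes for small nuclear RNAs (snRNAs), the RNA parts of the splicing machinery. Capitals mark the annotated snRNA bases.
sup-6 (chrII:12944870-12944970, plus strand): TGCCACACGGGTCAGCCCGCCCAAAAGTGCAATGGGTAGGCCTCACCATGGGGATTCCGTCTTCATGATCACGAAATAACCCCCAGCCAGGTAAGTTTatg
mir-1831 (chrII:6968477-6968577, plus strand): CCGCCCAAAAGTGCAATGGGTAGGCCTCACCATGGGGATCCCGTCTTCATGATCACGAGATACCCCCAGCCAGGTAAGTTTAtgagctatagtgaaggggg

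sup-6 and sup-39 are known as genetic suppressors that turned out to be U1 snRNA genes, and the region named after mir-1831 lies in sup-39, whose annotated bases hold mir-1831. The 165 bp genes sup-6 and sup-39 share 151 bases, or 91.5%, and sup-6 has 6 gene copies of the same length at 90% identity or more. Reads from such copies may be split or misplaced between them, so the values at these summits are uncertain for any single gene.

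The shared regions were of moderate signal, as the selection made them. Their median pooled signal was 23.0, with a range of 10.02 to 36.1, while the background had 12.7 and the 59 autosomal regions that overlapped an IDR peak had 59.7. In replicate 1 their signal ran from 12.01 to 36.1 with a median of 14.2, and in replicate 2 from 8.82 to 33.1 with a median of 10.4; the regions at rank 5000 stood at 12.001 and 8.80, so these ranges begin where the selection put them. Across the 319 regions Spearman's rho between the replicate signals was 0.078, and across all 6044 autosomal regions outside the IDR set that both replicates listed it was 0.033. Both values describe regions of the same libraries, cut from the lists by signal, and nothing is read from them. Of the 319, 23 were within the top 1000 of both replicates, 1 was within the top 300 of both and 0 within the top 100 of both. Replicate 1 ranked 157 of them higher and replicate 2 ranked 162 higher, and in 35 of the 319 the ranks differed by more than 10 times.

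**Figure D1:**
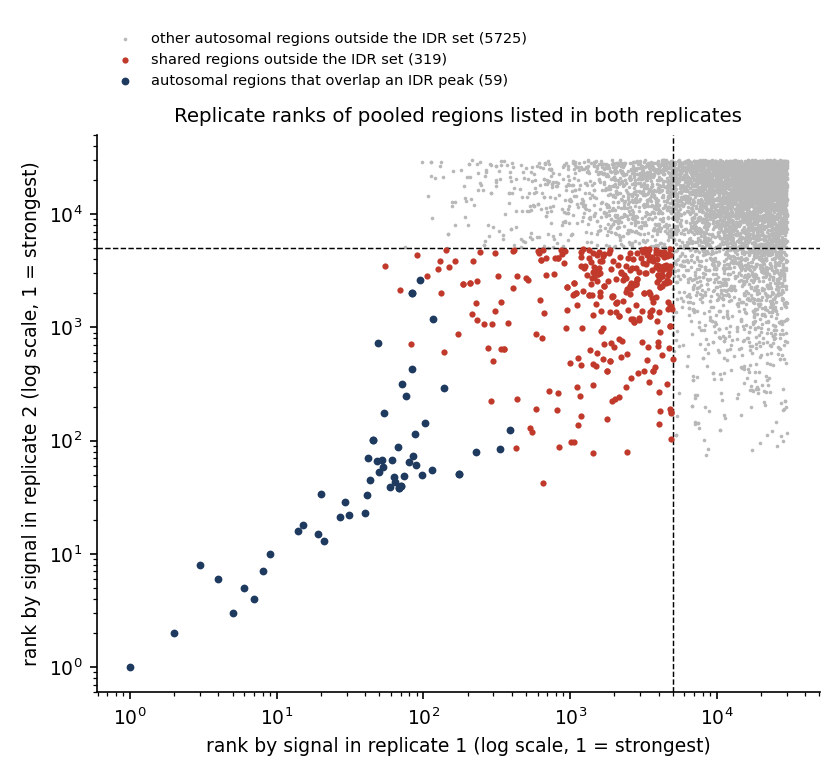
Rank of autosomal pooled regions in replicate 1 (x axis) and replicate 2 (y axis), both on log scales with 1 the strongest; dashed lines mark rank 5000. The 319 shared regions fill the corner within rank 5000 that defines them. The 59 autosomal regions that overlap an IDR peak are shown for reference. Their pooled ranks ran from 1 to 29792, with a median of 54, since overlap alone places a region in this group.

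Sharing between replicates was not frequent to begin with. Of the autosomal pooled regions outside the IDR set, 15.8% overlapped a top region of replicate 1 and 12.4% a top region of replicate 2. Of those in the top of replicate 1, 8.18% were also in the top of replicate 2, fewer than the 13.2% of regions outside the top of replicate 1; entry into the pooled list depends on both replicates, so these shares are not independent. Read from the replicate lists themselves, without the pooled list, 8.90% of the 764 autosomal replicate 1 regions at ranks 1 to 1000 that overlapped no IDR peak also overlapped a top 5000 region of replicate 2 (95% exact interval 6.98 to 11.1%), against 3.96% of those at ranks 25001 to 30000 (3.39 to 4.59%). From replicate 2 the same shares were 9.97% of 742 (7.91 to 12.4%) and 4.78% (4.15 to 5.48%). At ranks past 1000 to 5000 the shares lay between these, at 6.69% from replicate 1 (5.86 to 7.59%) and 6.51% from replicate 2 (5.69 to 7.41%). All these shares rest on the same replicate ranks that selected the shared regions. They are a description only, and the differences were not tested.

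The summits of the replicates lay apart. The median distance between the replicate 1 and replicate 2 summits was 94 bp in the shared regions, 110 bp in the 5725 background regions listed in both replicates and 21 bp at IDR peaks. In 97 of 319 shared regions (30.4%, 25.4 to 35.8%) the summits were within 50 bp of each other, against 27.4% of the background regions and 74.6% of those at IDR peaks. The distance depended on pooled rank: at ranks up to 300 its median was 54.5 bp in shared regions and 79 bp in the others listed in both replicates, but from 301 to 1000 it was 65 and 47 bp, from 1001 to 5000 it was 161 and 70 bp, and past 5000 it was 218 and 138.5 bp. At matched rank the summits of shared regions were thus closer in the first range only and farther apart in the others; these differences were not tested.

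The selection also admitted regions by their edges. Of the 61 shared regions past pooled rank 5000, 7 had the pooled summit inside both replicate regions, against 206 of the 258 at better ranks. In 28 of the 61 a stronger pooled region lay on the same replicate region, as at ZC190.12, where a region of pooled signal 10.6 qualified through the same replicate regions as its neighbour of 30.9. The 319 regions formed 289 places when regions within 500 bp were joined, 30 of them pairs, and they overlapped 291 distinct regions in each replicate.

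The limit cuts lists sorted by signal, so the values of members and others adjoin there by construction. The 3 members with a rank nearest the limit were in wdr-31, with signal 12.01 and rank 4982 in replicate 1 and signal 13.3 in replicate 2, in F26E4.3, with signal 12.97 in replicate 1 and 8.82 at rank 4954 in replicate 2, and near pigl-1, with signal 15.4 in replicate 1 and 8.83 at rank 4933 in replicate 2. The 3 nearest outside were near F54F2.7, at chrV:15696392-15696691 and 60 bp upstream of phm-2. Their replicate 1 ranks were 5014, 5018 and 5019 and their replicate 1 signals 11.994, 11.993 and 11.993, and their replicate 2 signals were 9.63, 13.8 and 11.6.

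Promoters held more of the shared regions than of the background. A summit counted as in a promoter when it lay from 500 bp upstream to 100 bp downstream of a protein-coding transcript start. By this measure 85 of 319 shared regions (26.6%, 95% exact interval 21.9 to 31.9%) were in promoters, against 16.7% of the background (16.2 to 17.2%) and 81.4% of the regions at IDR peaks. Regions in the top 5000 of 1 replicate only, which passed the same signal limit there, stood at 18.3%. The intervals cover the counting of regions only; regions of the same libraries are not replicates.

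The other classes moved less or the other way. Introns held 89 regions (27.9%, 23.0 to 33.2%) against 37.3% of the background, exons 66 (20.7%) against 18.8% and stretches between genes 79 (24.8%) against 27.2%. Summits with coding starts on both sides within 1000 bp that point away from each other, or that reach at most 100 bp past the summit, as at promoters that serve a gene on each side, made up 21 regions (6.58%, 4.12 to 9.89%), against 2.79% of the background and 52.5% of the regions at IDR peaks. At pooled ranks up to 300 they were 12 of 86 shared regions (13.95%) and 5 of the 89 others (5.62%). The shares were close in the later ranges: 4.95% and 4.41% from 301 to 1000, 2.82% and 2.89% from 1001 to 5000, and 3.28% and 2.73% past 5000. These differences were not tested. Of the 85 promoter regions, 62 (72.9%, 62.2 to 82.0%) had the summit upstream of the nearest coding start, against 82.8% (81.6 to 84.0%) of background promoter regions, and the median position was 127 bp upstream, against 187 bp upstream in background promoters.

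**Figure D2:**
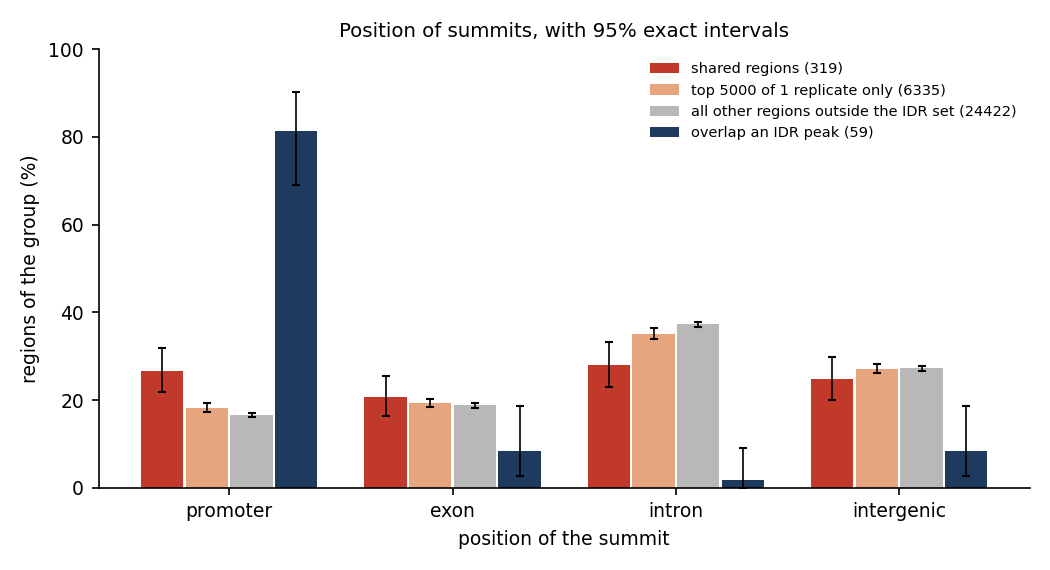
Share of summits in each position class (y axis, percent of the group's regions) for 319 shared regions, 6335 in the top 5000 of 1 replicate only, all 24422 other regions and 59 at IDR peaks, with 95% exact intervals. The shared regions stand at 26.6% in promoters, between the background at 16.7% and the IDR peaks at 81.4%.

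The promoter share depended on pooled rank. At pooled ranks up to 300, which hold 175 autosomal regions outside the IDR set, 86 were shared, and 34 of these (39.5%, 29.2 to 50.7%) were in promoters, against 18 of the 89 others (20.2%, 12.4 to 30.1%). From rank 301 to 1000 the shares were 24.8% of 101 shared regions and 20.4% of 476 others, and from 1001 to 5000 they were 25.4% of 71 and 18.7% of 3252. Past rank 5000 they were 13.1% of 61 and 16.3% of 20605. The intervals of the shared regions held the value of the others in all ranges but the first, where the intervals of both groups still met between 29.2 and 30.1%. These ranges were set after the values were seen.

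**Figure D3:**
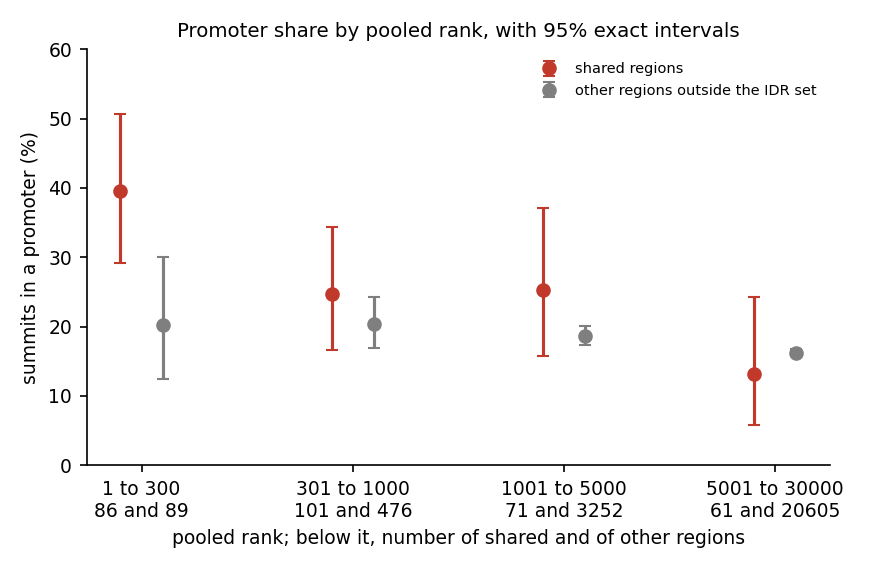
Share of summits in promoters (y axis, percent) by pooled rank (x axis) for shared regions and for other autosomal regions outside the IDR set, with 95% exact intervals. The share among shared regions falls from 39.5% at ranks up to 300 to 13.1% past rank 5000, while that of the others runs from 20.2% to 16.3%.

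Position along the chromosomes and base composition set the shared regions little apart. They made up 1.48% of the autosomal regions outside the IDR set on chromosome I (69), 1.29% on II (56), 1.48% on III (66), 1.15% on IV (63) and 1.12% on V (65), with overlapping intervals. The middle stretch of the chromosomes, 1 of 3 equal parts, held 33.5% of them and 30.1% of the background, and the median GC content was 32.3% in both. More than 50% of the region was repeat-masked in 31.7% (26.6 to 37.1%) of the shared regions and in 39.4% of the background. The central 51 bp occurred at more than 1 place in the genome in 3 of the 319, namely the intergenic region on chromosome V, F38E11.24 and sls-2.17, or 0.94%, against 0.483% of the background. On chromosome X, 6 of the 54 regions given by the same rule (11.1%, 4.19 to 22.6%) were in promoters.

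A few shared regions lay near IDR peaks. Within 1000 bp of an IDR peak lay 5 of the 319 (1.57%, against 0.16% of the background), near lelo-2, egl-30, rpl-35A, rps-26 and ash-2, and 17 lay within 5000 bp (5.33%, against 0.856%). The region near egl-30, which encodes the alpha subunit of a Gq protein, had the highest replicate 2 signal of all 319, at 33.1, with 16.9 in replicate 1, and lay 857 bp from an IDR peak.

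Among the 25 shared regions of highest pooled signal, from 36.1 down to 30.5, 9 were in promoters, 9 in exons, 3 in introns and 4 between genes. Replicate 1 gave 12 of them the better rank and replicate 2 the other 13. The promoter of his-37 had signal 15.02 in replicate 1 and 20.2 in replicate 2, where it ranked 78. Y75B7B.1, which RefSeq names as an RNA polymerase III subunit, had 17.4 and 16.9, with the summit 44 bp upstream of its start. In ranks, his-37 stood at 1434 and 78, and Y75B7B.1 at 552 and 118, so the latter was strong in both replicates.

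By rank, the promoters of frg-1 and egl-30 stood higher in replicate 2, while those of akap-17A and hmg-12 were more even. The frg-1 region had 13.8 in replicate 1 and 20.2 in replicate 2, and akap-17A, which carries the name of an A-kinase anchor protein, had 18.9 and 13.4. The hmg-12 region had 19.1 in replicate 1 and 15.1 in replicate 2, and rde-4 had 15.03 and 14.4. The rde-4 region also lay 175 bp upstream of cox-14, a gene of cytochrome c oxidase assembly that runs the other way.

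**Figure D4:**
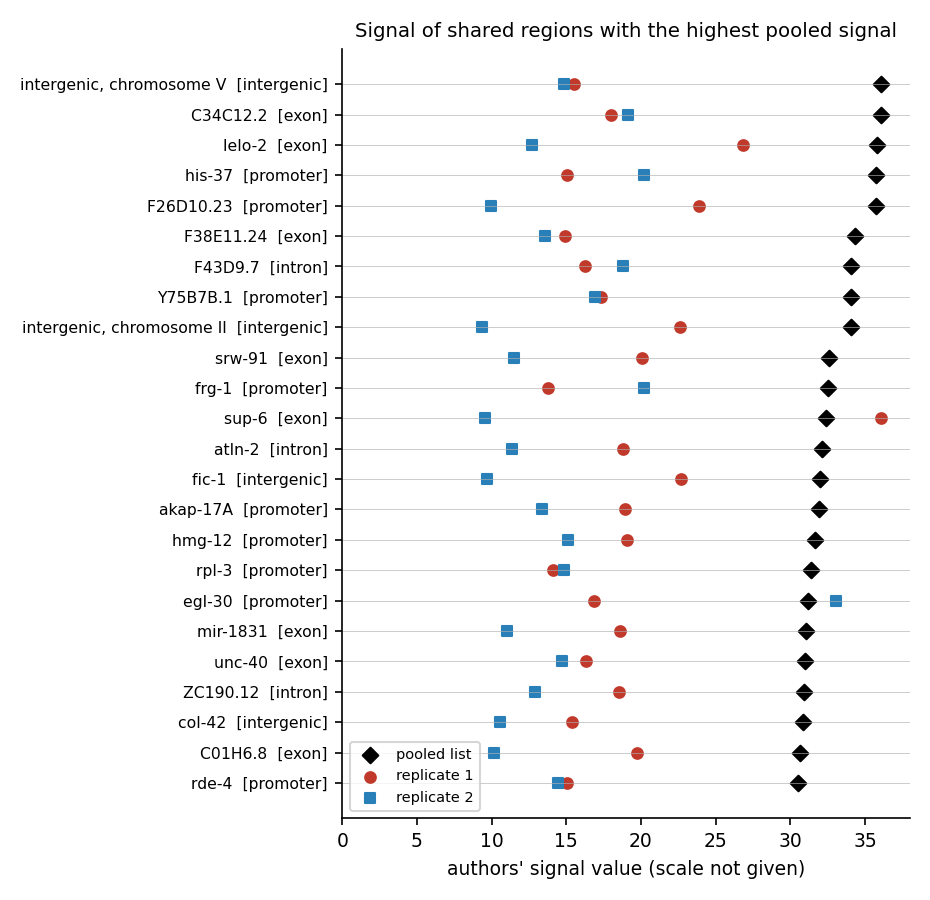
The authors' signal value (x axis) of 24 of the 25 shared regions of highest pooled signal in the pooled list, replicate 1 and replicate 2, ordered by pooled signal. Pooled values lie between 30.5 and 36.1, while single replicates range from 9.35 to 36.1.

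Regions outside promoters filled most of the list of 25. C34C12.2, which RefSeq describes as holding a fibronectin type III domain, had the summit in an exon, with 17.99 in replicate 1 and 19.1 in replicate 2. The exon of unc-40, the netrin receptor of axon guidance, had 16.3 and 14.7, and an intron of sly-1, 733 bp upstream of the non-coding RNA gene F43D9.7, had 16.3 and 18.8. All of these ranked at 845 or better in both replicates.

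Other regions of the list ranked higher in replicate 1. The chemoreceptor gene srw-91 had 20.1 in replicate 1 and 11.5 in replicate 2, the gene atln-2 for an atlastin, a protein that shapes the endoplasmic reticulum, had 18.8 and 11.4, and fic-1, a protein adenylyltransferase gene, had 22.7 and 9.68 at a summit 645 bp upstream of its start. The region near lelo-2 had 26.8 and 12.7 and lay 663 bp from an IDR peak. An intergenic region at chrII:6559233-6559532 had 22.6 and 9.35, and the gene C01H6.8 had 19.7 and 10.1. Further members of the 25, at ZC190.12 (18.5 and 12.9), upstream of the collagen gene col-42 (15.4 and 10.5) and between genes on chromosome V (15.5 and 14.8), were of moderate signal in both.

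Ribosomal protein genes were more frequent beside shared regions than genes at large. Of 8980 autosomal protein-coding genes with any pooled summit within 1000 bp of a start, 175 had a shared region there, or 1.95%; of 48 such genes for cytosolic ribosomal proteins, 7 had one, or 14.6%. The regions near rpl-3, rps-25, rpl-35 and rpl-15 lay 240, 409, 459 and 356 bp upstream of the start. Their replicate 1 signals were 14.1, 22.5, 13.8 and 13.6 and their replicate 2 signals 14.9, 10.6, 14.5 and 10.4, so rps-25 was the high one in replicate 1 and rpl-3 and rpl-35 in replicate 2.

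The summit of rpl-35A lay 336 bp downstream of the start in an exon, with 21.5 in replicate 1 and 9.57 in replicate 2. The remaining genes were rpl-26, whose region lies between it and cpf-1, a cleavage stimulation factor gene, and rps-26; they are named because the list is short, after their values were seen. rpl-35A and rps-26 also had an IDR summit within 1000 bp of the start, as did 13 of the ribosomal protein genes in all. By region, 5 of the 86 shared regions at pooled ranks up to 300 (5.81%) and 2 of the 89 others (2.25%) lay near such a gene.

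Chaperone genes gave 5 of 42 (11.9%). Besides hsp-1, with 23.9 in replicate 1 and 9.96 in replicate 2, they were dnj-12 and dnj-30, both of the DnaJ family of HSP70 partners, and hsp-12.3 and hsp-12.1, which encode small heat shock proteins. The region 29 bp upstream of dnj-12 had 15.5 and 15.8 and that 44 bp downstream of the start of dnj-30 had 15.03 and 13.5. The region counted for hsp-12.3 was 777 bp downstream of its start and had its summit in the snRNA gene F38E11.10, so hsp-12.3 is counted by distance alone. By region, 4 of the 86 shared regions at pooled ranks up to 300 (4.65%) and 1 of the 89 others (1.12%) lay near a chaperone gene. From 301 to 1000 the shares were 0% and 0.42%, from 1001 to 5000 1.41% and 0.246%, and past 5000 1.64% and 0.243%. These differences were not tested.

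snRNA genes had 7 of 59 (11.9%) and snoRNA genes, which guide the chemical modification of other RNAs, 15 of 186 (8.06%), against 264 of 12164 (2.17%) over genes of every type but piRNA and pseudogene. The annotation types mir-1831 as an snRNA, so the region in sup-39 counts for both genes. The 7 snRNA genes thus rest on 6 regions. Of these genes, mir-1831 and sls-2.17 are counted by distance alone. For mir-1831 the pooled summit lay 24 bp downstream of the start of a gene of 22 bp. For sls-2.17 it lay 116 bp downstream of the start of a gene of 109 bp. The region with its pooled summit in F38E11.10 had signal 14.9 in replicate 1 and 13.6 in replicate 2. That with its pooled summit in sup-6 had 36.1, the highest replicate 1 value of all 319, and 9.54. In sup-39 the values were 18.6 and 11.0. The replicate summits at sup-6 lay 265 bp apart, more than the 165 bp of the gene, so they cannot both lie inside it. At F38E11.10 they lay 28 bp apart. The central 51 bp of that region occurs at 3 places in the genome, and its gene has 6 copies at 90% identity or more.

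The snoRNA genes with the strongest regions were Y37E3.20, with 12.2 in replicate 1 and 11.3 in replicate 2, C08D8.3, with 15.8 and 10.7, F01D5.12, with 18.96 and 11.9, and Y76B12C.11, with 12.9 and 11.4. The last lay 893 bp from the summit, which was 1 bp upstream of the DNA repair gene xpc-1. By rank, C08D8.3 and F01D5.12 stood higher in replicate 1 and the others in replicate 2. Many snoRNA genes lie in or beside other genes. K11H12.12, K11H12.13 and F28C6.11 were counted through the regions of rpl-15 and rpl-26. F39B2.14 was counted through that of rps-26, with the summit 968 bp upstream of its start. With the start of a tRNA, snoRNA, snRNA, rRNA or microRNA gene within 500 bp there were 17 regions (5.33%, 3.13 to 8.40%), against 1.24% of the background, 1.85% of regions in the top 5000 of 1 replicate only and 16.9% of those at IDR peaks. This share depended on pooled rank. Up to rank 300 it was 8.14% of 86 shared regions and 5.62% of the 89 others. From 301 to 1000 it was 5.94% and 2.52%, from 1001 to 5000 it was 5.63% and 1.38%, and past 5000 it was 0% and 1.17%. These differences were not tested.

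**Figure D5:**
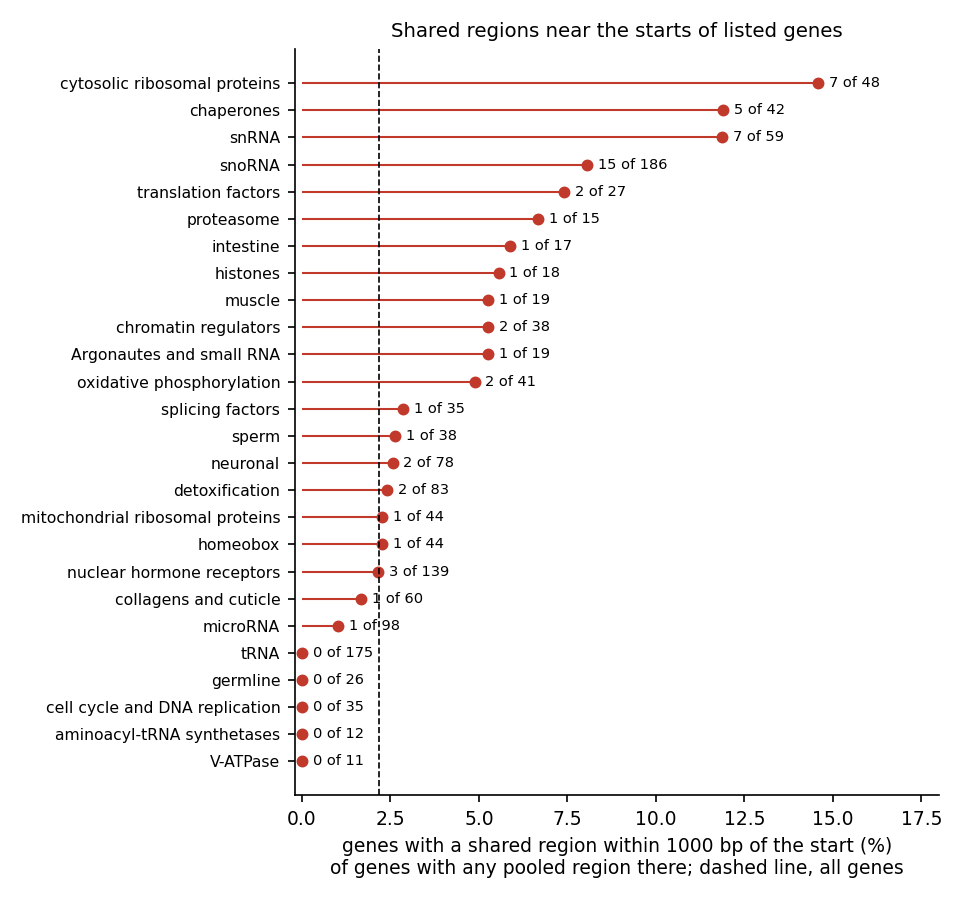
Percent of the genes in each list with any pooled summit within 1000 bp of a start that had a shared region there (x axis), for lists with at least 10 such genes; counts stand beside the points and the dashed line is the 2.17% of all genes. Ribosomal protein, chaperone, snRNA and snoRNA genes stand at 8.06% or more, and 5 lists, tRNA genes among them, are at 0.

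The other lists held 0 to 3 genes with a shared region each. Translation factor genes gave 2 of 27 (7.41%), chromatin regulator genes 2 of 38 (5.26%) and genes of oxidative phosphorylation 2 of 41 (4.88%). The proteasome (6.67%), intestine (5.88%), histone (5.56%), muscle (5.26%) and Argonaute and small RNA (5.26%) lists each rested on 1 gene. The region counted for the translation factor gene eif-2Bgamma had its summit in sup-39, 879 bp upstream of the start of eif-2Bgamma. The translation factor gene eif-6 and the proteasome gene pbs-2 were counted through the same region. Nuclear hormone receptor genes gave 3 of 139 (2.16%), namely nhr-146, with 13.996 in replicate 1 and 9.86 in replicate 2, nhr-110, with 15.2 and 8.86, and nhr-104, with 14.2 and 11.0. Neuronal genes gave 2 of 78 and detoxification genes 2 of 83. tRNA genes, transcribed by RNA polymerase III, gave 0 of 175, and germline genes 0 of 26, cell cycle and DNA replication genes 0 of 35. Genes that share a region are counted separately in these lists, and the lists were drawn up with the strongest peaks of these data known.

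The words that marked IDR summits were rare at the shared regions. Both words were known from these same IDR summits, so their shares there are high by choice and serve as a description only. Within 50 bp of the summit, CCTGCACA was found on either strand in 1 of 319 (0.313%, 0.00794 to 1.73%), against 0.102% of the background and 23.7% of the 59 regions at IDR peaks; of windows of the same length in the 17242 coding promoters, centred 200 bp upstream of the start, 0.145% held it. ACCGTA was found in 11 of 319 (3.45%, 1.73 to 6.09%), against 2.61% of the background, 44.1% of those at IDR peaks and 3.33% of the coding promoters.

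Most shared regions with ACCGTA lay in promoters, and most were at pooled ranks up to 300. Of the 85 shared regions in promoters 7 held it (8.24%, 3.38 to 16.2%), against 2.67% of background promoters. Of the 86 at pooled ranks up to 300, 7 held it (8.14%, 3.34 to 16.1%), against 2 of the 89 others there (2.25%, 0.273 to 7.88%) and 4 of the 233 shared regions past rank 300 (1.72%). From 301 to 1000 the shares were 0.99% of shared regions and 2.31% of others, from 1001 to 5000 4.23% and 2.40%, and past 5000 0% and 2.65%. Of the promoter regions with the word only cox-5A lay past rank 300, and of those up to rank 300 only srw-91 lay outside a promoter. The ranges were set after the values were seen, and the differences were not tested. Besides the promoters printed above, ACCGTA was found near F10E7.5, a ribosome assembly factor gene, with 15.6 in replicate 1 and 14.5 in replicate 2. It was also found near cox-5A, a cytochrome c oxidase subunit gene, with 14.2 and 12.8. Outside promoters it was found at srw-91, F26E4.3, glrx-22 and an intergenic region on chromosome IV.

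For 4 of the other 5 words searched on both strands, the counting interval at the shared regions held the background share. CCTGCA, which lies within CCTGCACA, was found in 1.57% against 1.98% of the background, ATCTAA in 4.70% against 5.70%, TGATAA in 8.15% against 9.19% and CACGTG in 1.88% against 1.42%. The remaining word, GAGAGA, was found in 22 regions (6.90%, 4.37 to 10.3%) against 4.28% of the background, and in 7.08% of the coding promoters. In a scan of all 2080 words of 6 bases with their reverse complements, the share at the shared regions exceeded that of the background by at most 4.59 percentage points, for AATAAA (32.6% against 28.01%). The largest difference in the other direction was -6.75 points, for AAAAGT (18.5% against 25.2%). AAGGGG, among the words of largest excess, was found in 17 regions, or 5.33%, against 1.66%. The words named from this scan are extremes picked from 2080, and some shared regions are close pairs. None of these differences was tested.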

How the data were processed

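Region lists (narrowPeak) were deposited by the authors, with 30000 peaks and background regions for each of 2 replicates and for both pooled, and an optimal IDR set of 92 peaks derived from them, per the deposited README text. The signal of a region is the authors' value in the deposited lists. Which aligner and peak caller made them, and at what IDR threshold, is not stated: not given in the sources used here. No read counts are in the lists, so depth is unknown. Coordinates are on ce11, counted from 1; 0 regions ran past a chromosome end of WBcel235, the same assembly.

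Regions were ranked by signal within each list, ties in file order. Genes came from Ensembl release 115, with symbols from RefSeq by WormBase ID (29390 of 29435 genes matched), since Ensembl names repeat over identical copies. Summits were classed as promoter, else exon, else intron, else intergenic. Intervals of shares are exact (Clopper-Pearson, 95%) and cover counting only. No p-value is given, since the regions were selected on the replicate signals. The regions, the 28 gene lists and the 7 words were chosen with earlier results of these data known.

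Named are the 25 regions of highest pooled signal, by the nearest start within 1000 bp of a gene other than piRNA or pseudogene, else by the gene around the summit, else by position; up to 4 regions of each list with 3 or more such genes; and 3 regions on each side of the rank limit. For 1 of the 25 the values are not reported here. Sequences are those of strong regions or of regions with a searched word. Overlap and promoter functions were tested on simulated data. Analyses used Python 3.11.15, pandas 2.3.3, numpy 2.4.6 and scipy 1.17.1.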

Additional observations from a re-analysis of the deposited data

How the results depend on the processing

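The number of shared regions follows the rank limit: with 1000, 2500 or 10000 regions per replicate it was 23, 111 or 978, and with a single replicate, leaving out the other, it ranged from 3072 to 3901. With 50% or more of the pooled region overlapped, the pooled summit inside both replicate regions, regions near IDR peaks left out, neighbours joined, pooled ranks up to 5000 or the ce10 lists, the count stayed within 1.5 times, between 216 and 314. The promoter share was 34.8%, 33.3% and 21.8% at the 3 rank limits and 19.02% to 19.08% with 1 replicate left out. With promoters of 1000 bp upstream it was 37.9% against 27.6% of the background, and with 250 bp upstream and 50 bp downstream 15.4% against 8.75%. With gene starts only, it was 23.2% against 13.3%. The background stood at 18.3% for regions in the top of 1 replicate only and 18.9% for those in the pooled top 5000. The share with a small RNA gene within 500 bp was 0% at a limit of 1000, where there are 23 regions, 2.86% at 10000 and 2.05% to 2.26% with 1 replicate left out. The single region with CCTGCACA was the only one within 100 bp as well. The count of ribosomal protein genes was 1, 4 and 11 at the 3 limits, and 5 without regions within 1000 bp of an IDR peak. The alternatives for small RNA and ribosomal protein genes, pooled rank and gene starts were chosen after seeing the data. No paired analysis was possible because there is 1 group and no result comes from a test. Depth is unknown, so what it limits cannot be stated.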
